A study of Caenorhabditis elegans with 2 samples.

Results

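The gene that makes RNase P RNA (rpr-1), the gene that makes RNase MRP RNA (mrpr-1) and 2 of the 5 genes named for signal recognition particle RNA (srpr-1.1 and srpr-1.2) each had a peak of the tagged F44E2.7 protein in the list made from both replicates. The 4 genes were chosen on these peaks, from 46890 annotated nuclear genes, so their signals, ranks and positions are a description and carry no test. A gene was given every peak whose summit, the base of highest enrichment, lay within 200 bp of it. rpr-1 had the fourth-highest signal of 896 pooled peaks, with its summit on the first base of the gene. In the longer ranked list behind the pooled list the same peak ranked 21. mrpr-1, srpr-1.1 and srpr-1.2 lay in the body of the signal range, passed the authors' threshold in replicate 2 and missed it in replicate 1. The peaks of mrpr-1 and srpr-1.2 lay just inside the 5′ end, while that of srpr-1.1 lay beyond the 3′ end.

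Chromatin immunoprecipitation and sequencing had been carried out on whole L4 larvae of Caenorhabditis elegans, 48 hours old, synchronised as starved L1 larvae after bleaching. The animals were of strain OP381, which carries the transgene wgIs381, in which F44E2.7 is fused to TY1, EGFP and 3xFLAG, together with unc-119(+) and unc-119(tm4063). RefSeq names the product of F44E2.7 a putative zinc finger protein. There were 2 biological replicates of this 1 group, no untagged animals were analysed here, and the labels describe an antibody to GFP in one field and name F44E2.7 in the antibody field. The transgene is 1 insertion line, and peak lists of whole animals do not say in which cells a site was bound.

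RNase P is the ribonucleoprotein that removes the 5′ leader from tRNA precursors, and its RNA is the catalytic part. RNase MRP is a related particle that shares most of its proteins with RNase P and acts in the processing of ribosomal RNA precursors. The signal recognition particle brings ribosomes that make secretory proteins to the endoplasmic reticulum, and its RNA is the scaffold of the particle. In vertebrates these short RNAs are made by RNA polymerase III, the enzyme that also makes tRNAs, and RNase P and MRP RNA genes there have a TATA box and a further element upstream of the start, whereas tRNA genes carry their promoter, the A and B boxes, inside the gene. The annotation used here lists the 4 genes as ncRNA.

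The sequences at the starts of the genes are shown because the peaks are described by their distance from the 5′ end. They are the gene strand of the WBcel235 assembly, in ce11 coordinates, and position 0 is the first base of the gene. mrpr-1 lies on chromosome II at positions 7200233 to 7200418 on the plus strand, and its line runs from -100 to 49. Capitals mark TATATA, 34 to 29 bases before the gene, and an 11-base word, 58 to 48 bases before it, that recurs upstream of rpr-1 with 1 difference.
mrpr-1: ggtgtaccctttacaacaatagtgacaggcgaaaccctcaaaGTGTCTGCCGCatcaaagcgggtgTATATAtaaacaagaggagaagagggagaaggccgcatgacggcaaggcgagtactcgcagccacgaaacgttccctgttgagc
The next lines give the 100 bases before each srpr gene, with capitals on the word TTATATTT, which holds TATAT. In srpr-1.1 and srpr-1.2 a further T follows this word. TATAT lay 28 to 24 bases before the gene in srpr-1.1, srpr-1.2 and srpr-2.2, and no match in that place was found for srpr-2.1 and srpr-3.
srpr-1.1 upstream: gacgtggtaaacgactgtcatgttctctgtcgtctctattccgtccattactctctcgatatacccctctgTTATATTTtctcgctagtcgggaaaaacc
srpr-1.2 upstream: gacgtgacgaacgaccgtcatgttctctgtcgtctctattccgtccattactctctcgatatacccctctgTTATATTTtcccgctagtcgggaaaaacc
srpr-2.2 upstream: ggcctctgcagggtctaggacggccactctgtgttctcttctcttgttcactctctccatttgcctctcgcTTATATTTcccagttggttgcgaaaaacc
srpr-2.1 upstream: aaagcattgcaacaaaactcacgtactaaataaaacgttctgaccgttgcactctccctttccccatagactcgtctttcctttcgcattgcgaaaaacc
srpr-3 upstream: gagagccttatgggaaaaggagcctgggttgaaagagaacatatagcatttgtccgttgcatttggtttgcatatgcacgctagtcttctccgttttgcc
The upstream stretches of srpr-1.1 and srpr-1.2 were identical at 95 of 100 bases. Windows of 20 bases were compared base by base, with no gaps allowed. They were 100% identical from -80 to -21, 95% from -20 to -1, 80.0% from -100 to -81 and 50% from -120 to -101. Windows farther upstream, to -300, were between 5.00% and 45.0% identical. Without gaps the likeness of the pair thus extended about as far as the shown lines. An inserted or lost base would lower every window beyond it, so likeness farther upstream was not tested.

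The transcribed parts of srpr-1.1 and srpr-1.2 are shown because they are nearly the same, which bears on how far a short read can be placed at one of them. srpr-1.1 lies on chromosome III at positions 4378909 to 4379206 on the minus strand and is 298 bp long. srpr-1.2 lies on chromosome III at positions 4369468 to 4369766 on the plus strand and is 299 bp long. Capitals mark the bases that differ in the alignment of the pair, 4 mismatches and 1 gap, which leave 294 of 299 aligned positions (98.3%) identical.
srpr-1.1 gene: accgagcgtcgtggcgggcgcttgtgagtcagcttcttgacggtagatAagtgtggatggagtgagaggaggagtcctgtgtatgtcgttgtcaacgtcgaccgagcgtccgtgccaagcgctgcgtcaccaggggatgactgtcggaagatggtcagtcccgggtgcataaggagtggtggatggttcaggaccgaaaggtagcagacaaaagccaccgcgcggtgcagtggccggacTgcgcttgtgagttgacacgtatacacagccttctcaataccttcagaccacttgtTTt
srpr-1.2 gene: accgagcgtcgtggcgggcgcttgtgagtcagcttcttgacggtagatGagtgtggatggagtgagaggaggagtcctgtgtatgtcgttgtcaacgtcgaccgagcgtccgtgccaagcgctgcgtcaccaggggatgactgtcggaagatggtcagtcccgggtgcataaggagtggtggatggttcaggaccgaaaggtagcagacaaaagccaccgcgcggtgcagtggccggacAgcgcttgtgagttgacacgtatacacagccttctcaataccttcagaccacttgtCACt
Compared with srpr-1.1, the gene was 94.3% identical in srpr-2.1, 94.0% in srpr-2.2 and 81.7% in srpr-3, and the 100 bases upstream were 52.0%, 63.2% and 43.2% identical. srpr-2.1 and srpr-2.2 were 99.0% identical in the gene and 51.5% upstream. The genes of the family therefore resembled each other far more inside than upstream, except for srpr-1.1 and srpr-1.2, which were alike in both.

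The lists need a few words before the values. There were 4 thresholded lists: the pooled list with 896 peaks and the conservative list with 864, both from the 2 replicates together, and lists of replicate 1 alone with 178 peaks and of replicate 2 alone with 319. Behind each stood a longer ranked list, of 108809, 109271, 65299 and 71635 peaks, that holds weak candidates as well. The irreproducible discovery rate (IDR) states how inconsistently a candidate ranks when a pair of lists is compared, so a low IDR marks a repeatable peak. No peak of a thresholded list had an IDR above 0.01. The ranked lists held 987, 961, 234 and 381 peaks at an IDR of 0.01 or lower, more than the thresholded lists. Some candidates of low IDR were thus left out of the thresholded lists, and why was not examined. The signal is the authors' enrichment value for a peak, on a scale that is not stated, and ranks peaks within a list only. The score is a whole number, capped at 1000, that rises as the IDR falls. A summit within 200 bp was found for 2.49% of all genes in the pooled list, 2.38% in the conservative list, 0.589% for replicate 1 and 1.06% for replicate 2. The ranked lists covered 55%, 55.3%, 47.2% and 48.4% of all genes, in the same order, so presence in a ranked list says little about a gene. The 4 genes all had such a summit in the pooled and conservative lists, in the list of replicate 2 and in the 4 ranked lists, and 1 of the 4, rpr-1, had it in the list of replicate 1. The genes were picked on the pooled peaks, so nothing is read from these counts against the shares of all genes.

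rpr-1, the RNase P RNA gene (WBGene00045238), lies on chromosome I at positions 13463955 to 13464207 on the plus strand, 253 bp long, in an intron of ints-8 on the opposite strand. ints-8 encodes a subunit of Integrator, a complex that cleaves the 3′ ends of small nuclear RNAs. The signal of the rpr-1 peak was 317 in the pooled and conservative lists, 116 in replicate 1 and 194 in replicate 2. It ranked 4 of 896, 4 of 864, 7 of 178 and 4 of 319, so it was near the top of each thresholded list. In the ranked lists behind them it ranked 21 of 108809, 21 of 109271, 29 of 65299 and 19 of 71635. Some candidates of higher signal were thus absent from the thresholded lists. The score of the rpr-1 peak was at the cap of 1000 in each thresholded list. The IDR was 4.03e-05 in the ranked list behind the pooled list, 5.20e-05 in that behind the conservative list, 0.000106 in replicate 1 and 2.57e-05 in replicate 2.

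The pooled summit of rpr-1 was at position 0, and the summits of replicate 1 and replicate 2 were at 9 and 20. All lay at the start of the gene or just inside it. The pooled peak was 176 bp wide. It was 1 of 18 pooled peaks (2.01%) narrower than the full width of 270 bp that the other peaks shared. The rpr-1 peak was the only pooled peak within 20 kb of the gene. The same count, own peak included, was 2 for mrpr-1 and 3 each for srpr-1.1 and srpr-1.2. The srpr-1 pair lie within 20 kb of each other, so their counts share peaks. In the pooled list, 2 peaks at snoRNA genes stood above the rpr-1 peak in signal, at ZK994.7 (signal 413) and at C51F7.3 and C51F7.4 (411). So did a peak on chromosome III at position 10759235 (345) with no structural RNA gene in the window. The peaks of rank 5 and 6, with signals of 310 and 289, also had no such gene in the window.

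mrpr-1, the RNase MRP RNA gene (WBGene00045095), lies between genes, 131 bp from pcrg-1 and 668 bp from E04F6.6. The signal of its peak was 88.3 in the pooled and conservative lists and 70.4 in the list of replicate 2. These signals ranked 397 of 896 (44.3% from the top), 388 of 864 and 145 of 319, near the middle of each list. The score was 1000, 992 and 1000. In replicate 1 the gene had a ranked candidate only, of signal 30.6, rank 2865 of 65299, score 146 and IDR 0.443. The IDR was 0.00159 in the ranked list behind the pooled list, 0.00407 in that behind the conservative list and 0.00199 in replicate 2.

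The summit of mrpr-1 was at position 21 in the pooled list and at 5 in replicate 2, near the 5′ end. The candidate of replicate 1 had its summit at position 161, 24 bases short of the last base. That was 140 bp from the pooled summit. Of 875 pooled peaks with a match in the ranked lists of both replicates, 17 (1.94%) had a replicate 1 summit as far away or farther, and the median distance was 15 bp. Of the single replicates, only replicate 2 thus showed the mrpr-1 peak near the 5′ end, and the weak candidate of replicate 1 did not share that position. The pooled and conservative lists include replicate 2, so they are not separate sightings of it. The nearest peak outside the window was a ranked candidate 598 bp past the 3′ end, of signal 42.4 and IDR 0.497.

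srpr-1.2, the srpr gene of the higher pooled signal (WBGene00045168), lies in an intron of ckb-2, a choline kinase gene on the same strand. The signal of its main peak was 105 in the pooled and conservative lists and 57.9 in the list of replicate 2. These signals ranked 228 of 896 (25.4%), 224 of 864 and 261 of 319, so the peak stood in the upper part of the pooled list and the lower part of the list of replicate 2. The score was 1000, 989 and 934. In replicate 1 there was a ranked candidate only, of signal 31.8, rank 2355 and IDR 0.539. The IDR was 0.00220 in the ranked list behind the pooled list, 0.00415 in that behind the conservative list and 0.00561 in replicate 2.

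The srpr-1.2 summit was at position 41 in the pooled list, 48 in replicate 1 and 44 in replicate 2. The 3 positions lay within 7 bp of each other, inside the gene. A further candidate stood near the 3′ end in the ranked lists only. It had a signal of 43.2 at position 244 in the ranked list behind the pooled list, 5.87 at position 262 in replicate 1 and 22.6 at position 262 in replicate 2, with IDRs of 0.203, 0.808 and 0.374. None of these passed the threshold. Outside the window the nearest ranked candidate was 452 bp past the 3′ end, with a signal of 11.4.

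srpr-1.1 (WBGene00045189) has a peak that passed the threshold downstream of the gene, not on it. The gene lies 2 bp from the end of pals-26, on the opposite strand, and 115 bp from B0284.3. The signal of the downstream peak was 97.7 in the pooled and conservative lists and 63.9 in the list of replicate 2. These signals ranked 282 of 896 (31.5%), 279 of 864 and 197 of 319, with scores of 1000, 927 and 979. The summit was at position 444, which is 147 bp past the 3′ end and inside a coding exon of pals-26, in each of these 3 lists. The pooled peak covered positions 4378627 to 4378896 and ended short of srpr-1.1. Of the 4 genes it was the one whose thresholded summit lay nearest to the limit of 200 bp.

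A candidate at the 5′ end of srpr-1.1 missed the threshold. Its signal was 63.1 at position -5 in the ranked lists behind the pooled and conservative lists, 30.3 at position 3 in replicate 1 and 38.8 at position 2 in replicate 2. Its IDR was 0.0162 behind the pooled list, 0.0116 behind the conservative list, 0.744 in replicate 1 and 0.148 in replicate 2. The downstream peak in replicate 1 had a signal of 29.0 at position 442, rank 3841 and IDR 0.158, so in replicate 1 the signals of the 5′ and downstream candidates were alike, 30.3 and 29.0. In replicate 2 the downstream signal was the higher, 63.9 against 38.8. The candidate at the 5′ end is the one that corresponds in place to the peaks of rpr-1, mrpr-1 and srpr-1.2, and whether the downstream peak belongs to srpr-1.1 or to pals-26 cannot be told apart from its position.

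**Figure D1:**
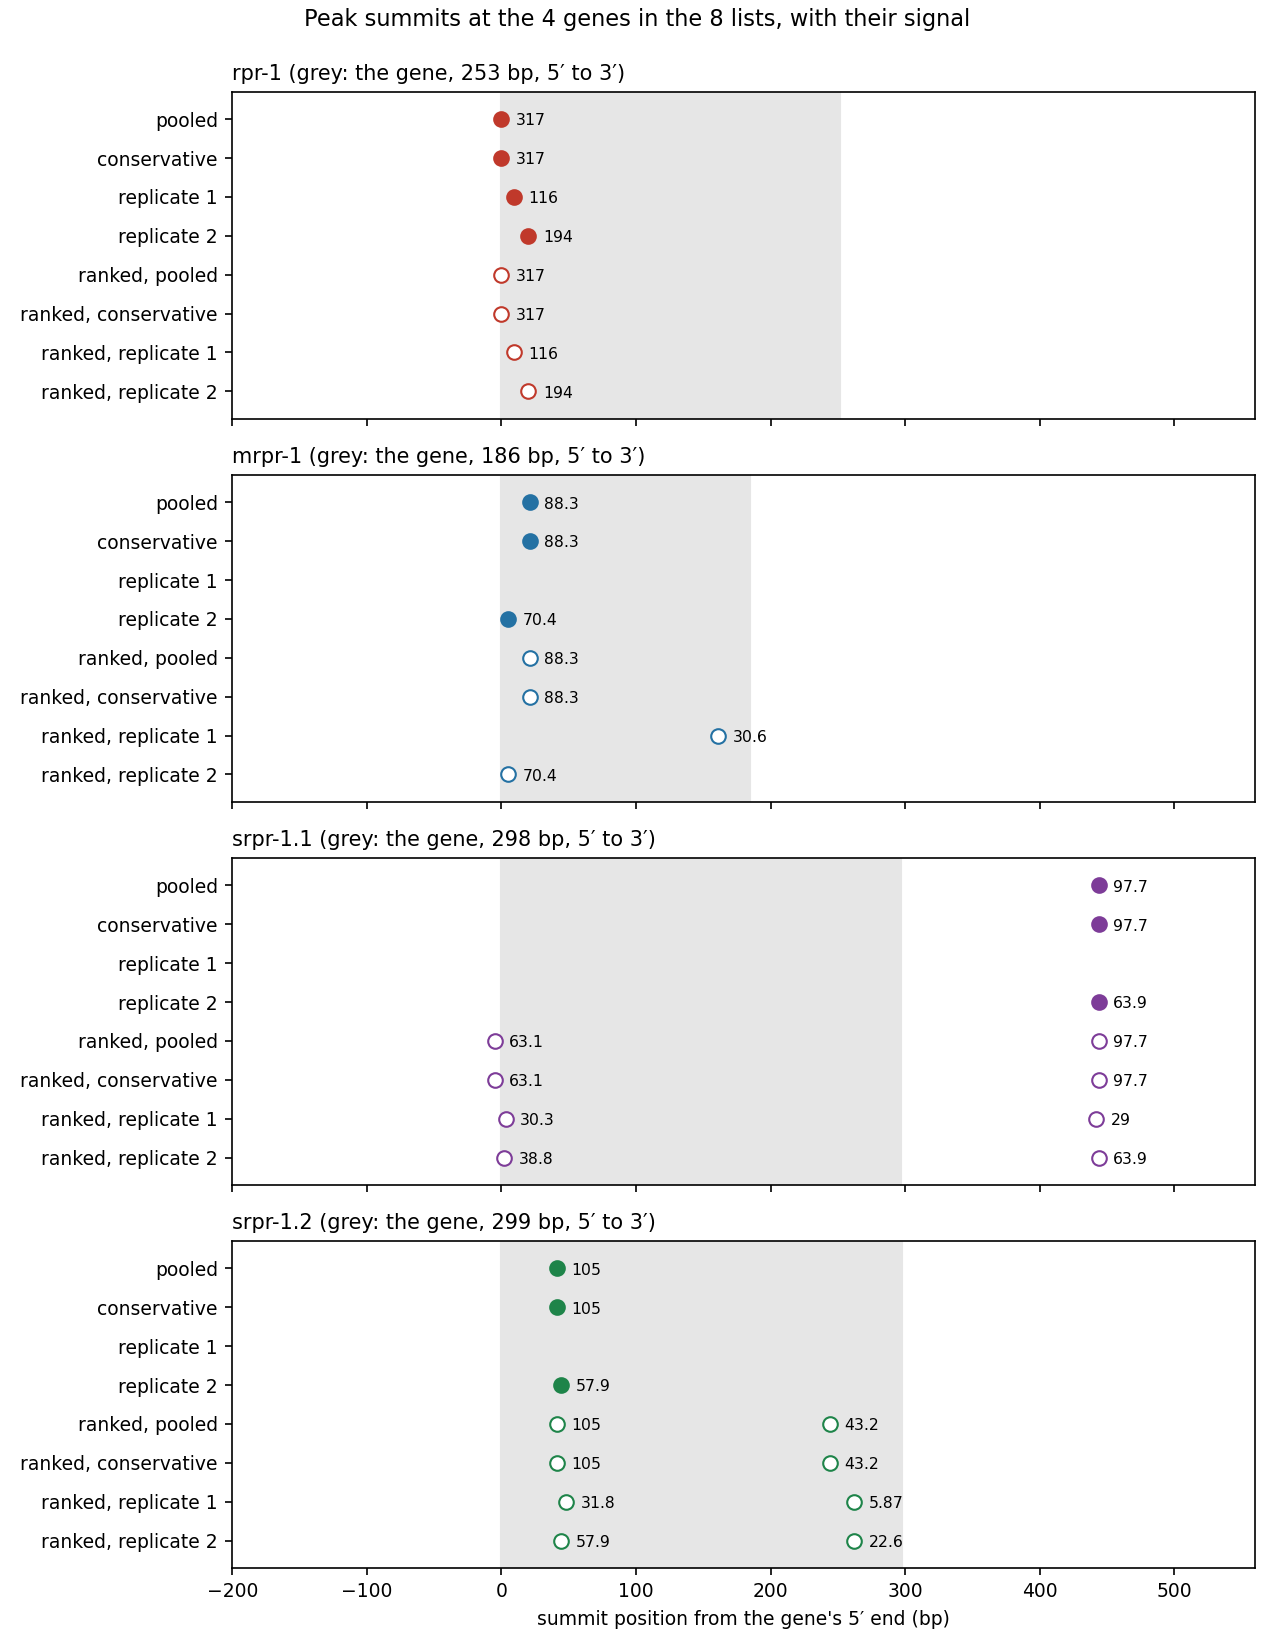
Summit position from the 5′ end in bp (horizontal) in each of the 8 lists (rows) for the 4 genes, with the authors' signal beside each point. Filled points are thresholded peaks, open points are peaks of the ranked lists, and grey is the gene. rpr-1 summits lie between 0 and 20 in every list, and the thresholded summit of srpr-1.1 lies at 444, to the right of the gene.

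How far the SRP RNA peaks can be assigned to one gene depends on sequence that occurs elsewhere. In rpr-1, mrpr-1 and srpr-3, 0% of the 36-base words of the gene had another exact copy in the genome. In srpr-1.1 this share was 85.2% for words of 36 bases, 76.7% for 50 and 45.7% for 100. In srpr-1.2 it was 71.2%, 58.8% and 45.5%. A read inside either gene thus often has more than 1 equally good place, and no source used here states the read length or what was done with such reads.

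The same count over the peak intervals separated the downstream peak from those over the 5′ ends of srpr-1.1 and srpr-1.2. The pooled peaks of rpr-1 and mrpr-1 also held 0% repeated words at each length. The thresholded peak of srpr-1.1 held 0% repeated words at 36, 50 and 100 bases. The candidate at its 5′ end held 61.3%, 50.2% and 1.17%, and the srpr-1.2 peak at position 41 held 65.1%, 50.2% and 16.4%. The downstream peak therefore lay in sequence found at 1 place in the genome. The peaks over the 5′ ends of the pair lay partly in repeated sequence, and the repeated share was lower for longer words. Whether reads shared by the copies raised or lowered the signal at the 5′ ends was not tested.

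The 3 other srpr genes had 0 of 3 summits in the pooled list, the conservative list and the list of replicate 2. srpr-2.2, on chromosome III in an intron of klp-6, had a peak in the list of replicate 1, of signal 36.2 and rank 174 of 178, at position 230. Its candidate in the ranked list behind the pooled list had a signal of 81.7 at position 72 and an IDR of 0.0117, just above the threshold, whereas the IDR behind the conservative list was 0.453. In replicate 2 its higher candidate had a signal of 43.5 at position 123 and an IDR of 0.0681. The summits of srpr-2.2 thus lay at different places in the lists. srpr-3, on chromosome V, had candidates of 64.1 behind the pooled list, 42.1 in replicate 1 and 24.4 in replicate 2, at positions 113, 114 and 161. Their IDRs were 0.0262, 0.0613 and 0.676, in the same order, and the IDR behind the conservative list was 0.0484. srpr-2.1, on chromosome III, had a candidate in replicate 1 only, of signal 41.0 at position -5 and IDR 0.0573. In srpr-2.1 61.2% and in srpr-2.2 59.6% of the 50-base words were repeated, so the same limit on placing reads holds for them.

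**Figure D2:**
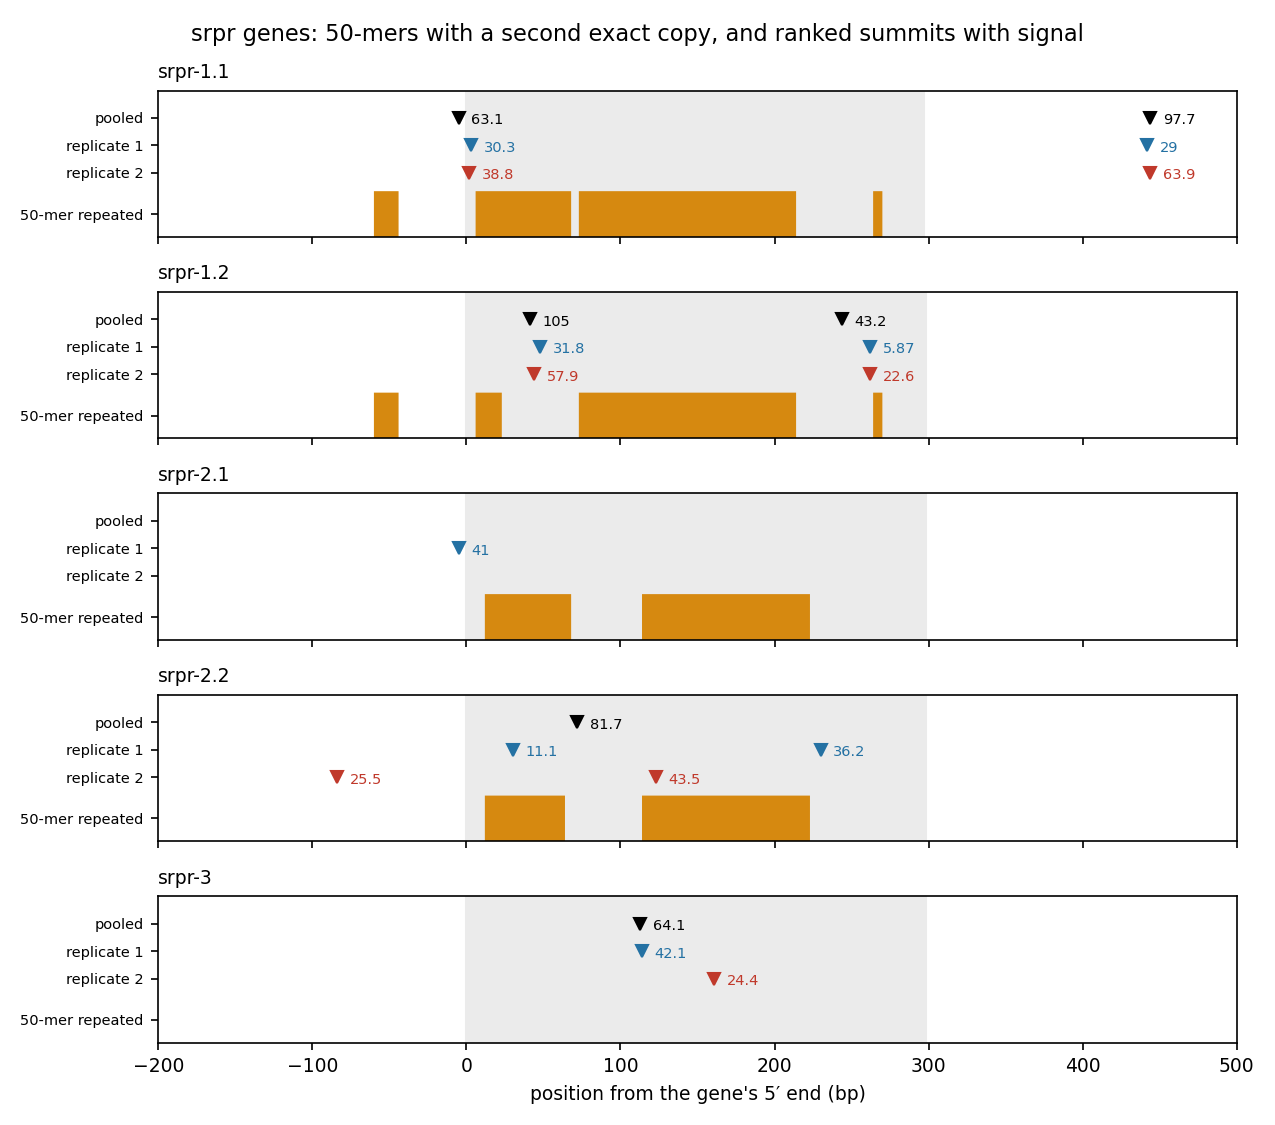
Position from the 5′ end in bp (horizontal) for the 5 srpr genes, each in grey. Orange marks the centres of 50-base words with another exact copy in the genome, and triangles mark summits of the ranked lists behind the pooled list and of each replicate, with the authors' signal. The peak of signal 97.7 beyond the 3′ end of srpr-1.1 stands clear of the repeated words, and srpr-3 has none.

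The replicates differed in how strongly they supported the 4 genes. The ratio of the signal in replicate 2 to that in replicate 1 was 1.68 for rpr-1, 2.30 for mrpr-1, 2.21 for srpr-1.1 and 1.82 for srpr-1.2, taken from the ranked lists. For mrpr-1 the summits of the ratio lay apart, at position 5 in replicate 2 and 161 in replicate 1. Its ratio is thus not of 1 site measured in both replicates. Over the 875 pooled peaks with a match in both, the median ratio was 1.27, with quartiles of 1.00 and 1.64. The 4 ratios were above that upper quartile. At pooled peaks of tRNA genes the median was 1.37, with quartiles of 1.07 and 1.75, so rpr-1 lay within the tRNA quartiles and the other 3 genes lay above them. Signals of different lists have no stated common scale, so the ratios are read only against these spreads. Of the 896 pooled peaks, 114 were in the lists of both replicates, 48 in replicate 1 only, 189 (21.1%) in replicate 2 only and 545 in neither. rpr-1 belonged to the 114, and mrpr-1, srpr-1.1 and srpr-1.2 to the 189. Among the 226 pooled peaks at tRNA genes, 31.4% were in replicate 2 only.

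**Figure D3:**
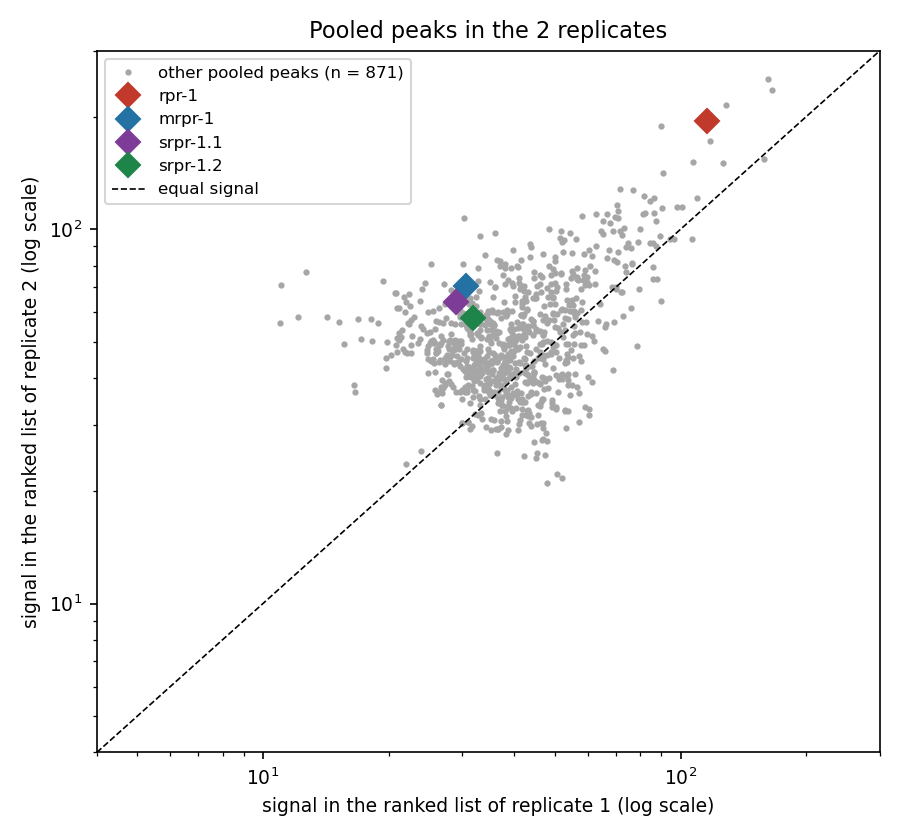
Signal of pooled peaks in the ranked list of replicate 1 (horizontal, log scale) and of replicate 2 (vertical, log scale), 1 point per pooled peak with a match in both. The dashed line marks equal signal, and the diamonds of the 4 genes lie above it, rpr-1 at 116 and 194 and the others between 29.0 and 31.8 in replicate 1. For mrpr-1 the replicate 1 summit was at position 161 and that of replicate 2 at 5.

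The other structural RNA genes give the setting for the levels and positions of the 4 peaks. In the pooled list a summit within 200 bp was found for 250 of 612 tRNA genes (40.8%, exact Clopper-Pearson 95% interval 36.9 to 44.9%), 51 of 346 snoRNA genes (14.7%, 11.2 to 18.9%), 14 of 129 snRNA genes (10.9%, 6.06 to 17.5%) and 243 of 7760 other ncRNA genes (3.13%, 2.75 to 3.54%). The intervals cover counting error over genes only, and neighbouring genes can share a peak. Many summits of other ncRNA genes were also summits of tRNA or snoRNA genes, so these classes are not separate. The signals and summits of the other ncRNA class are thus in part those of tRNA and snoRNA genes. The median signal was 97.0 at tRNA genes, 138 at snoRNA genes, 103 at snRNA genes and 92.6 at other ncRNA genes, against 85.1 over all pooled peaks. The signals of mrpr-1, srpr-1.1 and srpr-1.2 lay between the quartiles of the tRNA genes. No tRNA, snRNA or other ncRNA gene had a signal as high as that of rpr-1, and 3 snoRNA genes did, at the 2 peaks of highest signal.

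Summit positions were compared by class in the same list. The median summit was at -39 for snoRNA genes (quartiles -55.5 and -6.5), and 42 of 51 lay upstream. It was at 20 for tRNA genes (-2 and 45), 40 for snRNA genes (-11.2 and 107) and 70 for other ncRNA genes (30.5 and 113). The pooled summits of mrpr-1 at 21 and srpr-1.2 at 41 lay within the quartiles of the tRNA and snRNA genes. That of rpr-1 at 0 lay within the quartiles of these classes as well, at their lower end, and that of srpr-1.1 at 444 lay outside the quartiles of every class. A summit counts only within 200 bp of a gene, so a gene much shorter than srpr-1.1 cannot have one at 444. Gene lengths were not matched between the classes, so nothing is read from this difference.

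**Figure D4:**
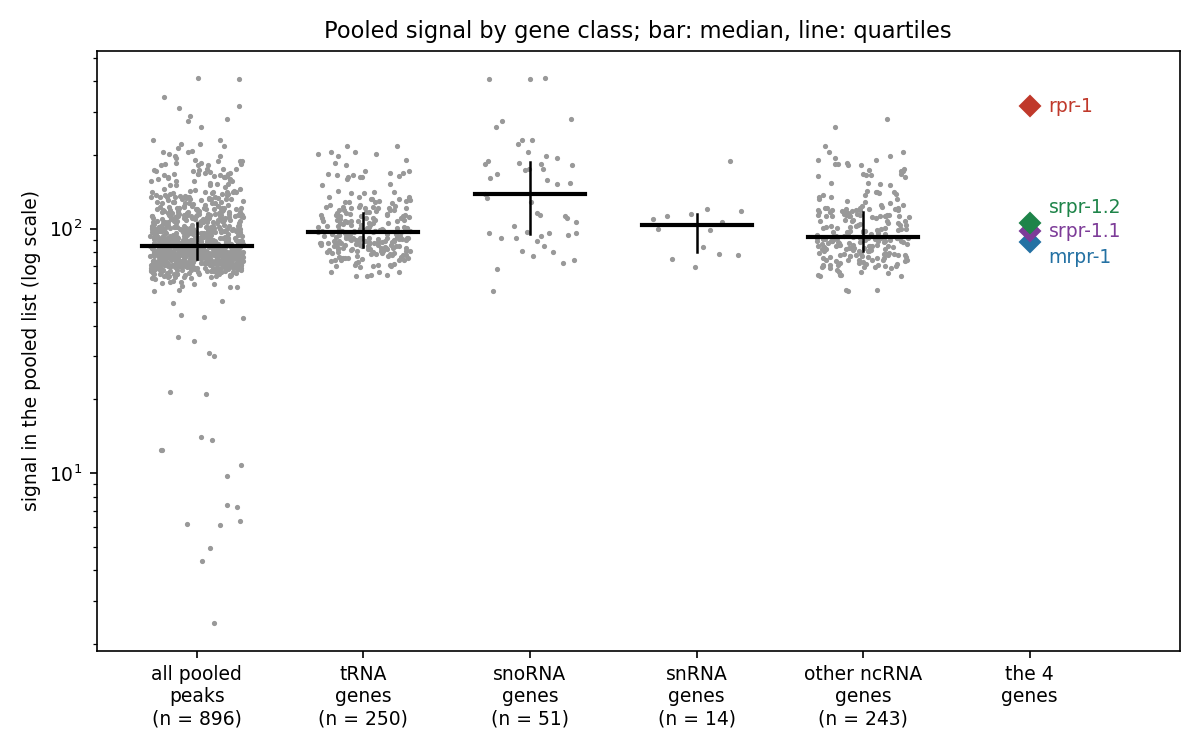
Signal in the pooled list (vertical, log scale) for all 896 pooled peaks, for the highest peak of each gene of 4 structural RNA classes, and for the 4 genes. Horizontal bars are medians and vertical lines join the quartiles. rpr-1 at 317 stands above every tRNA, snRNA and other ncRNA gene, and the other 3 genes lie between 88.3 and 105.

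For each of the 4 genes the gene of nearest pooled signal was taken from each class. Nearest to rpr-1 were the snoRNA gene Y23H5B.10 and the ncRNA gene Y23H5B.13, which share a peak of signal 282, the tRNA-Gly gene M02F4.T1 with 218 and an snRNA gene on chromosome III, summit 10989731, with 189. The annotation gives that snRNA gene the name R07E5.16, which 14 genes share, 4 of them with a pooled summit. Each of these signals was lower than that of rpr-1. Nearest to mrpr-1 were the tRNA-Gly gene K04C2.T1 and the ncRNA gene K04C2.11, with a shared peak of 88.3, the snoRNA gene C17H12.36 with 88.8 and the snRNA gene F32B5.9 with 83.9. The peak of 88.3 was equally that of the tRNA gene WBGene00023098. Its summit lay at position 14 of WBGene00023098 and at -139 from K04C2.T1. Nearest to srpr-1.1 were the tRNA-Ala gene F49C5.T2 (97.7), the ncRNA gene K06A4.13 (97.9), sls-2.2 of the snRNA class (98.6) and the snoRNA gene K02C4.8 (96.6). K06A4.13 shares its peak with the tRNA gene WBGene00014423. Nearest to srpr-1.2 were the tRNA-Leu gene F10C1.T2 and the ncRNA gene F10C1.18 at a shared peak, the snoRNA gene C04G6.12 and, on chromosome III, an snRNA gene with summit 5080883 named F54D8.7, all at 106. The name F54D8.7 is shared by 3 genes, of which 1 had a pooled summit.

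Short motifs were looked for in the gene and in the 250 bases before it, on both strands, in the 4 genes and in each structural RNA class. Protein-coding genes were searched upstream and at the 3′ end only. The B box of tRNA genes, searched as GTTCAANNC or GTTCGANNC, was found in 0 of the 4 genes and in 0 of their upstream stretches. It was inside 96.1% of tRNA genes and in the upstream stretch of 13.0% of snoRNA genes, 45 genes, of which 23 had a pooled summit. Of all snoRNA genes, 14.7% had a pooled summit. TATATA was found upstream of 4 of 4 genes, against 7.68% of tRNA genes, 6.65% of snoRNA genes, 20.2% of snRNA genes, 8.60% of other ncRNA genes and 11.5% of protein-coding genes. Within 100 bases of the start it was found in 2 of 4, rpr-1 at -30 to -25 and mrpr-1 at -34 to -29, while in srpr-1.1 it was a run of repeats between -189 and -158 and in srpr-1.2 it lay at -216 to -211. The shares within 100 bases were 2.12% of tRNA, 3.76% of snoRNA, 15.5% of snRNA, 3.5% of other ncRNA and 5.68% of protein-coding genes. The shorter TATAT, part of TATATA, was within 100 bases of the start in 4 of 4 and in 17.3% of tRNA, 12.7% of snoRNA, 24.8% of snRNA, 17.1% of other ncRNA and 23.3% of protein-coding genes.

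The word shared by rpr-1 and mrpr-1 was GTGTC, any base, GCCGC, at -56 to -46 and at -58 to -48. It was the longest stretch, with at most 1 difference, in common between the 100 bases before the pair, and it was sought after their sequences had been seen. It was upstream, within 250 bases, of 0 of 612 tRNA genes, 6 of 346 snoRNA genes (1.73%), 0 of 129 snRNA genes, 6 of 7748 other ncRNA genes (0.0774%) and 15 of 19972 protein-coding genes (0.0751%). Besides rpr-1 and mrpr-1, a pooled summit was found for 1 of the 6 snoRNA genes (F59C6.15), 1 of the 6 other ncRNA genes (B0212.7) and 0 of the 15 protein-coding genes. The shares with a pooled summit were 14.7% of all snoRNA genes, 3.13% of other ncRNA genes and 2.49% of all genes. Nothing is read from counts this small. The summit of B0212.7 was also that of the tRNA gene WBGene00022894. A pair of genes near the same word is a description, and no factor is assigned to it.

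At the 3′ end, TTTT in the last 10 bases of the gene or the next 10 was found in 4 of 4 genes. A run of T is the usual stop signal of RNA polymerase III. It was found in 94.0% of tRNA genes, 41.0% of snoRNA genes, 21.7% of snRNA genes, 21.5% of other ncRNA genes and 40.3% of protein-coding genes. Bases G and C made up 59.4% of the 101 bp around the summit at rpr-1, 55.4% at mrpr-1 and at srpr-1.2, and 41.6% at srpr-1.1, against a median of 50.5% (quartiles 44.6 and 55.4%) over all pooled summits. The downstream summit of srpr-1.1 was thus the one of lowest GC content of the 4.

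Protein partners of these RNAs were taken by gene symbol or sequence name, so the lists of proteins may be incomplete. The partners were examined at their promoters, from 1000 bp upstream to 200 bp downstream of the gene start. A pooled summit lay there for 1.51% of protein-coding genes, 301 of 19973. It was found for 0 of 4 genes of RNase P and MRP proteins (popl-1, popl-4, popl-5 and popl-7), 0 of 8 of signal recognition particle proteins and its receptor, and 0 of 13 of RNA polymerase III, its factors and the small nuclear RNA activating complex. The conservative list and a narrower window, from 500 bp upstream to 100 bp downstream, also gave 0 in each list. At the share of all protein-coding genes, a 0 among 25 genes cannot be told from the background, since it allows a share of up to 12%.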

How the data were processed

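Peak lists in narrowPeak format were used as deposited, 2 thresholded and 2 ranked lists from both replicates and 1 of each from each replicate, per the accompanying file notes. The deposited score, signal and −log10 values (of the IDR) are the authors' own, and the scale of the signal is not stated. Per the labels, chromatin was sonicated and the assembly is ce11. Aligner, peak caller, settings, use of a control and read length were not given in the sources used here. No file holds counts, so depth is unknown and no count model was fitted.

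Each thresholded list was matched to the ranked list that holds its peaks with the same scores, 896 of 896 and 864 of 864 for the lists of both replicates. Gene positions came from the Ensembl annotation of WBcel235, whose chromosome names and lengths fit ce11, tRNA products and 1 protein name from RefSeq. Coordinates are 1-based. The genes, the lists of proteins and the named genes (the 4 genes, their neighbours, the gene of nearest pooled signal in each class and partner genes with a summit) were chosen with earlier results of these data known. Counts and medians are descriptions, and no test was run. Sequences were aligned end to end with Biopython 1.88, and exact words of 36, 50 and 100 bases were counted on both strands of the genome. These word counts, the motif windows of 100 bases and the shared word were chosen after the sequences were seen. In the motif counts, genes within 250 bases of a chromosome end were left out. The counting of summits was checked on simulated lists. The tools were pandas 2.3.3 and numpy 2.4.6 under Python 3.11.15, with scipy 1.17.1 for intervals and matplotlib 3.10.9 for figures.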

Additional observations from a re-analysis of the deposited data

How the results depend on the processing

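The number of the 4 genes with a pooled summit was 4 with windows of 200 and 500 bp, in the conservative list, at an IDR of 0.05 and with RefSeq positions, and 3 with windows of 50 and 100 bp or by overlap of the interval, each of which lost srpr-1.1. At an IDR of 0.001 it was 1, and over the lists of single replicates it ranged from 1 to 4. An IDR of 0.05 also admitted the candidates of srpr-2.2 and srpr-3 in the ranked list behind the pooled list. Ranked by score, which is capped, all 4 genes stood at 28.2% of the pooled list. The rank of rpr-1 was 0.463% in the conservative list and ranged from 1.25 to 3.93% over the lists of single replicates. The other 3 genes had a value in replicate 2 only: the rank was 61.8% for srpr-1.1 and 81.8% for srpr-1.2. Over single replicates the rpr-1 summit ranged from 9 to 20, and that of srpr-1.2 was at 44 in replicate 2. The share of genes with a summit ranged over single replicates from 9.48 to 19.8% for tRNA, 8.96 to 11.3% for snoRNA, 3.10 to 3.88% for snRNA and 0.825 to 1.52% for other ncRNA genes, and the last was 3.74% with a window of 500 bp. The cause was not tested, and fewer peaks were listed for each replicate alone. No paired analysis was possible because the 2 replicates form 1 group and no test was run. The unknown depth, read length and treatment of reads with several places limit what can be said of srpr-1.1 and srpr-1.2.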
